A study of Homo sapiens with 58 samples.

Results

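The loci of 9 forkhead genes, FOXC1, FOXC2, FOXF1, FOXF2, FOXD1, FOXD2, FOXL2, FOXP1 and FOXP2, were examined for their response to the dosage of SOX9. A regulatory element (RE), here an interval of open chromatin in which ATAC-seq reads were counted, belonged to a gene if its midpoint lay inside the gene body or within 100 kb of an annotated start site of that gene (GENCODE release 44, hg38). This rule used position only, and it took 220 of 151457 REs. FOXP1 held 65 REs, FOXP2 36, FOXC1 26, FOXD2 24, FOXC2 23, FOXF1 20, FOXF2 17, FOXD1 15 and FOXL2 13. FOXC2 and FOXF1 are neighbours on chromosome 16, so some REs counted under both. Of the 220 REs, 41 lay within 1000 bp of a start site of any gene and were called promoter REs.

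ATAC-seq marks open chromatin by the cuts of the Tn5 transposase. The cells were cranial neural crest cells (CNCCs) made in culture from H9 cells, a widely used line of human embryonic stem cells. In SOX9-tagged cells the endogenous SOX9 protein was fused to a degradation tag (FKBP12-F36V, with mNeonGreen and V5), and the degrader dTAGV-1 removes the tagged protein. The tag was carried by S9CC13 and S9CC47, each a clone of its own, while wild-type (WT) cells carry no tag and serve as the control for the degrader itself. SOX9-tagged cells were treated for 48 h with 0, 0.5, 1.6, 5, 16 or 500 nM dTAGV-1, for which the labels give SOX9 at 100, 77.9, 51.7, 25.8, 8.14 and 0.95% of the untreated level. Each of these 6 groups held 7 replicates, 4 of S9CC13 and 3 of S9CC47. A replicate is a clone within a differentiation, and S9CC13_R6 and S9CC47_R6 share differentiation R6. WT cells were treated for 48 h with 0 or 500 nM (n = 2 each). A time course of both genotypes held vehicle for 24 h, 500 nM for 3 h and 500 nM for 24 h (n = 2 each). The 58 samples held 22.9 to 81 M (mega) counts in REs, and the 220 REs of the forkhead loci held 26.9 to 3386 counts per RE on average at 0 nM (median 123). The most open promoter REs of the 7 neural crest markers TFAP2A, TWIST1, NR2F1, NR2F2, PRRX1, SNAI2 and SOX9 were open at 0 nM, from 29.6 to 137 CPM (read counts scaled to a common library total) per kb. Markers of other cell types did not separate as a class. Of the pluripotent markers, POU5F1 lay at 1.84 to 4.03 and LIN28B at 34.9 to 43.9 CPM per kb, and NANOG had no promoter RE in the table. Of the early neural markers, SOX1 lay at 3.09 to 5.46, PAX6 at 13.9 to 24.9 and SOX2 at 15.8 to 32.6. Of the Schwann cell or melanocyte markers, SOX10 lay at 2.22 to 4.74 and MITF at 37.7 to 60.5. The cartilage gene COL2A1 reached 50.8 to 103 and the endothelial gene CDH5 13.8 to 28.2 CPM per kb, and the part of such cells in the results was not tested.

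Forkhead proteins are transcription factors that bind DNA through a winged-helix domain, and several can bind sites on nucleosomes. FOXC1 and FOXC2 act in head mesenchyme and the eye, FOXF1 and FOXF2 are targets of Hedgehog signaling in mesenchyme of the face and gut, and FOXD1 and FOXD2 are expressed in facial mesenchyme. FOXL2 is known for its part in the eyelid and ovary. FOXP1 and FOXP2 belong to a subfamily that forms dimers, and FOXP2 is known for its part in speech. SOX9, a factor of neural crest and cartilage, binds short motifs around ACAAT and ACAAA and often binds them as facing pairs.

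The REs of the forkhead loci that the results turn on are shown first by their sequence. Each RE is named by its gene and a letter, in the order of its log2 change at 500 nM among the named REs of the gene, except FOXP1-I and FOXP2-D, which were chosen after their values were seen. The 120 bases printed are those with the most SOX cores (ACAATG or ACAAAG on either strand, in capitals) or, where there is no core, the centre of the RE. The set consists of REs lower at 3 h and at 48 h of 500 nM dTAGV-1, and it shows how far the letters under these REs differ.
FOXP1-A (hg38 chr3:71007536-71007655, plus strand): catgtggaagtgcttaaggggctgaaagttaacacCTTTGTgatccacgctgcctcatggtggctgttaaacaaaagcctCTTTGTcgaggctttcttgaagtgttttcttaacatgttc
FOXP1-B (hg38 chr3:71596685-71596804, plus strand): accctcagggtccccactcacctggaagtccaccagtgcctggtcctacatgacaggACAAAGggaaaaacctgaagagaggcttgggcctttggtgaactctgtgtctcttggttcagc
FOXP1-C (hg38 chr3:71408209-71408328, plus strand): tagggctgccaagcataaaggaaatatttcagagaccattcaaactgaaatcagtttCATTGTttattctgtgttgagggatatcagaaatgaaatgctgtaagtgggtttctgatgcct
FOXP2-A (hg38 chr7:114412652-114412771, plus strand): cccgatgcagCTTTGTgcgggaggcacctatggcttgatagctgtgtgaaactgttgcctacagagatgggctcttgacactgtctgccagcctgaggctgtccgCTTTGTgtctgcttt
FOXP2-D (hg38 chr7:114599075-114599194, plus strand): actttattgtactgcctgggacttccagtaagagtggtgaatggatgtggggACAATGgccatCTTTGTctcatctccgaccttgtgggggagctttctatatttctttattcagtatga
FOXC1-A (hg38 chr6:1527404-1527523, plus strand): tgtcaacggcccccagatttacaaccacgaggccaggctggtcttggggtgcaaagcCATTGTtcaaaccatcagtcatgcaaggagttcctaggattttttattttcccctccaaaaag
FOXF1-A (hg38 chr16:86480597-86480716, plus strand): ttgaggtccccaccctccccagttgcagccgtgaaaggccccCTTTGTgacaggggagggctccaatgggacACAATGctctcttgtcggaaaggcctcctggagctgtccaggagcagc
FOXD1-A (hg38 chr5:73387976-73388095, plus strand): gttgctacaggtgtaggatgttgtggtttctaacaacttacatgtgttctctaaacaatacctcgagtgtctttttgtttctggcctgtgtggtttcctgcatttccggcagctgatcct
FOXP1-A held 3 SOX cores in all, of which 2 are in the stretch shown, and FOXP2-A also held 3. In FOXP2-D the cores ACAATG and CTTTGT face each other across 5 bases. Only 2 of the 220 REs held cores that face each other across at most 10 bases, and the other, in the FOXP1 locus, was not called at any time or dose. Facing cores occurred in 0.423% of all REs. FOXD1-A held no ACAATG or ACAAAG.

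Full depletion was compared first. At 500 nM, 46 of 220 REs (20.9%) changed by edgeR's quasi-likelihood test with a Benjamini-Hochberg adjusted p under 0.05 over all REs, against 24.1% of all REs tested. Of these, 32 fell and 14 rose (14.5% and 6.36%), against 13.9% and 10.2% of all REs. The 14 higher REs became 6 without S9CC47_R8 and 7 without S9CC47_R5, while the lower ones stayed between 25 and 37 whichever replicate was left out. The share of changed REs at the forkhead loci was thus near the background. The median log2 change was -0.03 over the 220 REs and 0.02 over all REs. Among promoter REs, 6 of 41 changed (4 lower, 14.6% in all), and among distal REs 40 of 179 changed (28 lower, 22.3% in all), against 15.2% and 27.1% of all promoter and distal REs. Without the batch covariate 15 REs were called, 13 lower and 2 higher.

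**Figure D1:**
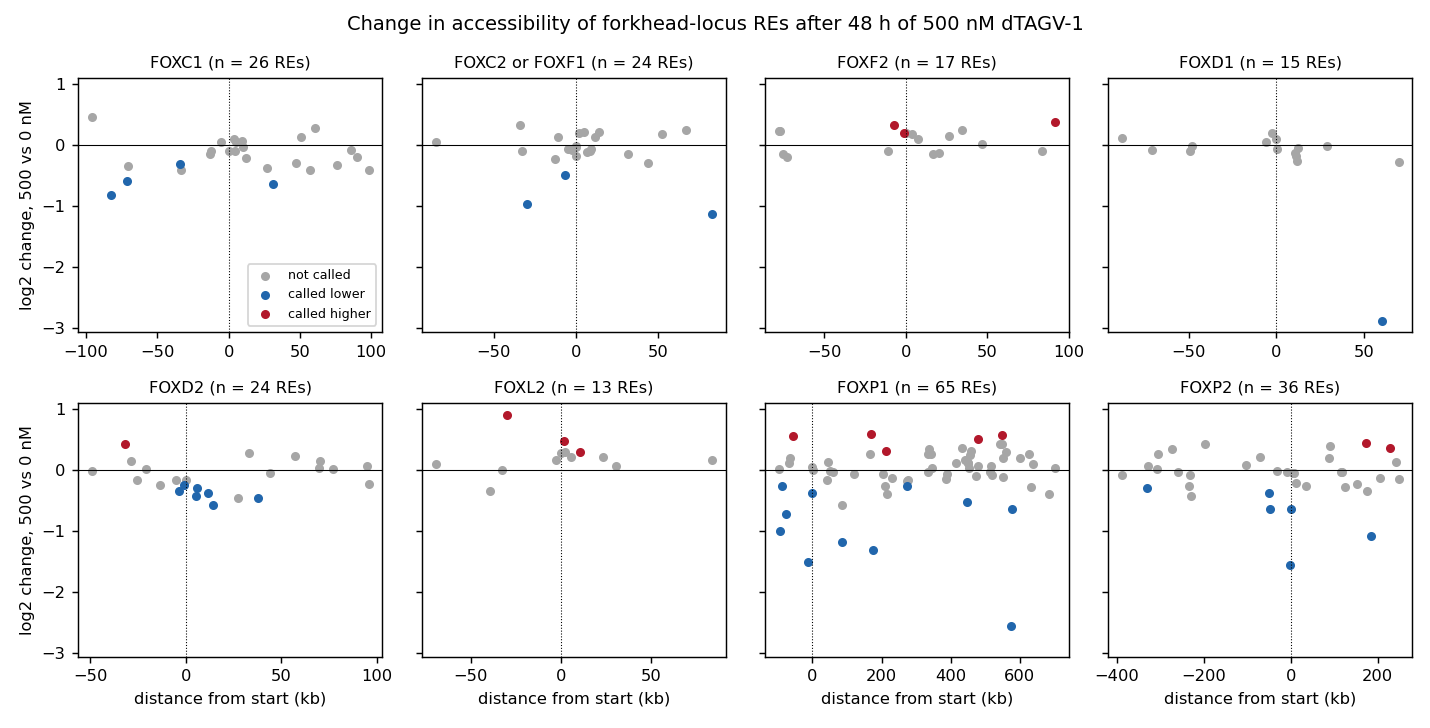
Log2 change in accessibility at 500 nM against 0 nM (48 h, SOX9-tagged, n = 7 each) of each RE against its distance from the canonical start (kb, negative upstream; for FOXC2 and FOXF1 the nearer start), with called REs in blue (lower) and red (higher). FOXP1-A and FOXD1-A reached -2.57 and -2.88, while the called REs of FOXF2 and FOXL2 lay above 0.

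Calls by locus are given as counts, and differences between loci were not tested. At FOXP1 11 REs fell and 5 rose, at FOXP2 6 fell and 2 rose, and at FOXD2 7 fell and 1 rose. FOXC1 held 4 lower REs and none higher, FOXC2 3 lower, FOXF1 2 lower and FOXD1 1 lower. All 3 called REs of FOXF2 and all 3 of FOXL2 were higher. The sum of CPM over the REs of a locus, taken as a percentage of the untreated sample of the same replicate, was 112 ± 5.55% at FOXF2 (SD, n = 7, lowest replicate 104%) and 113 ± 11.4% at FOXL2 (lowest 105%). It was 89.9 ± 7.07% at FOXC1 (highest replicate 99.3%), 93.0 ± 5.54% at FOXP2 (highest 98.5%) and 94.7 ± 3.92% at FOXP1 (highest 98.6%). At FOXC2, FOXF1, FOXD1 and FOXD2 it was 96.1, 97.8, 95.1 and 96.0%, with the highest replicates at 100, 105, 102 and 103%. In WT cells the same sums after 48 h of 500 nM (n = 2) lay at 96.1 to 97.1% for FOXP1, 94.0 to 99.7% for FOXC1, 96.9 to 116% for FOXL2 and 83.9 to 96.2% for FOXF2, and both were at 103% for FOXP2. The tagged and WT ranges thus overlapped at FOXP1, FOXC1 and FOXL2 but not at FOXP2 or FOXF2. These sums are descriptions without a test.

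The RE at the start site was next compared between genes, in CPM per kb of RE. Without dTAGV-1 it ran from 44.8 ± 25.0 at FOXD2 (FOXD2-B), 26.7 ± 3.97 at FOXD1 and 19.0 ± 4.24 at FOXC1 down to 6.91 ± 1.49 at FOXF2 and 3.89 ± 0.725 at FOXF1 (SD, n = 7). FOXP2 at 14.1 ± 1.92, FOXC2 at 12.5 ± 1.87, FOXP1 at 9.93 ± 2.69 and FOXL2 at 9.52 ± 2.73 lay between. The ranges of neighbours in this order overlapped except for FOXF2 and FOXF1, where the lowest FOXF2 sample (5.51) lay above the highest FOXF1 sample (4.54). FOXD2-B had the widest spread, from 24.3 to 82.6.

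Only the start of FOXP2 was called at 500 nM among these 9 REs. FOXP2-B (chr7:114413636-114415196) covers the canonical start, and its midpoint lies in an annotated untranslated region of FOXP2. It held 17.7, 22.8 and 26.1 CPM at 0 nM (lowest, median, highest of 7) and 12.7, 14.1 and 16.1 at 500 nM. The groups did not overlap, and FOXP2-B fell in 7 of 7 replicates (log2 change -0.64 ± 0.08 SE, edgeR adjusted p = 1.6e-06). The log2 changes of the other 8 ranged from -0.17 ± 0.11 at FOXC2-B and -0.16 ± 0.09 at FOXD2-B to 0.28 ± 0.13 at FOXL2-A. FOXL2-A was past the threshold with a replicate block (0.29, adjusted p = 0.017). FOXD2-B was called at 16 nM (-0.41 ± 0.10, adjusted p = 0.0054) but not at 500 nM (adjusted p = 0.22). Other promoter REs beside a start were called at 500 nM. Lower were chr3:71584038-71585083, 310 bp upstream of the FOXP1 start, and chr1:47436419-47437223, 821 bp upstream of FOXD2. Higher were chr6:1387821-1388679, 897 bp upstream of FOXF2, and chr3:138944786-138945286, 1851 bp downstream of the FOXL2 start. The last lies in an untranslated region of FOXL2 and counts as a promoter RE only through a start of another gene. FOXF2-A itself lies 467 bp downstream of the FOXF2 start.

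**Figure D2:**
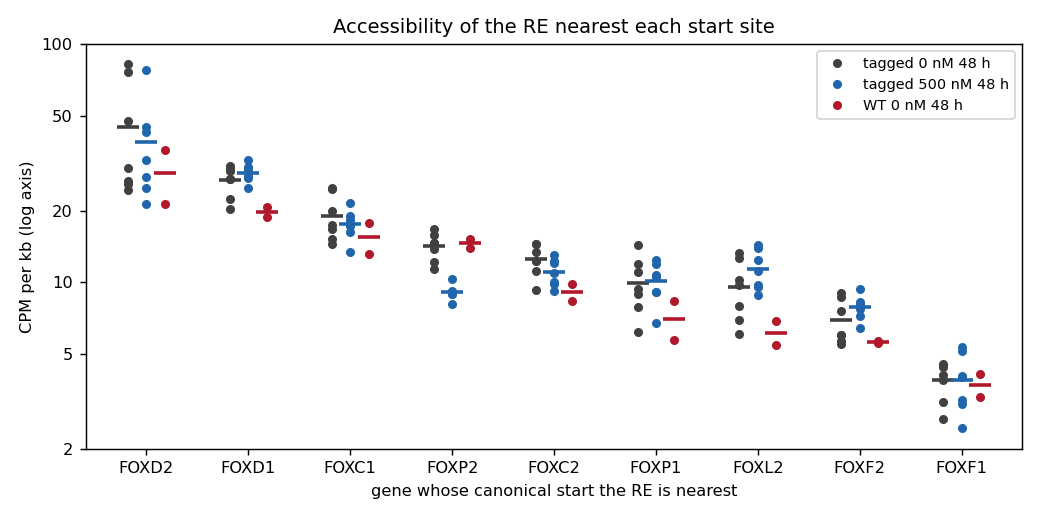
CPM per kb (log axis) of the RE nearest the canonical start of each gene, in SOX9-tagged samples at 0 and 500 nM for 48 h (n = 7 each) and untreated WT samples (n = 2), with points for samples and dashes for means. FOXP2 at 500 nM lies below its untreated samples, while at the other genes the 0 and 500 nM samples overlap.

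FOXP2-A, the RE of that locus with the smallest p, lies 1.81 kb upstream of the start in an intron (chr7:114412506-114413006). It held 3.98, 7.20 and 8.38 CPM at 0 nM (lowest, median, highest) and 1.49, 1.90 and 3.66 at 500 nM. All 500 nM samples lay below all untreated samples, a fall of 2.94-fold (log2 change -1.56 ± 0.14 SE, edgeR adjusted p = 7.6e-09). FOXP2-D (chr7:114598976-114599476, intron), the RE with facing cores, was weak, at 0.394, 0.791 and 1.79 CPM before and 0.0450, 0.295 and 1.16 after, and these groups overlapped (-1.08 ± 0.27, adjusted p = 0.0036). FOXP2-C (chr7:114589372-114589872), about 9 kb from FOXP2-D, was higher, from a median of 1.76 to 2.70 CPM (0.44 ± 0.14, adjusted p = 0.019), and this call was lost without S9CC47_R8 (0.35, adjusted p = 0.10).

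FOXP1-A lies deep in FOXP1, 576 kb downstream of the canonical start in an intron (chr3:71007336-71007836). It held 2.88, 3.64 and 6.60 CPM at 0 nM and 0.533, 0.682 and 1.09 at 500 nM. The groups were wide apart, and FOXP1-A fell in 7 of 7 replicates by 5.95-fold (log2 change -2.57 ± 0.17 SE, edgeR adjusted p = 2.1e-11). FOXP1-C (chr3:71407843-71408343, intron) went from 1.76, 2.51 and 4.20 to 0.541, 1.02 and 1.56 CPM, again with no overlap (-1.32 ± 0.14, adjusted p = 7.8e-08). FOXP1-B (chr3:71596585-71597085), 12.9 kb upstream of the canonical start in an intron of ENSG00000285708, went from 0.491, 1.03 and 1.29 to 0.0682, 0.284 and 1.12 CPM, where S9CC47_R5 held 1.12 CPM in both and overlapped the untreated range (-1.52 ± 0.30, adjusted p = 0.00037). FOXP1-I (chr3:71497484-71497984, intron) went from a median of 2.10 to 0.888 CPM (-1.19 ± 0.20, adjusted p = 5.6e-05).

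Other REs of the FOXP1 locus rose. FOXP1-H, in an intron of FOXP1 (chr3:71414174-71414674), lies about 6 kb from FOXP1-C, and its median went from 1.42 to 1.63 CPM (0.59 ± 0.19, edgeR adjusted p = 0.020). FOXP1-G rose by 0.58 ± 0.19, FOXP1-F by 0.56 ± 0.15 and FOXP1-E by 0.51 ± 0.18 on the log2 scale (adjusted p = 0.025, 0.0069 and 0.038). FOXP1-F, 56.7 kb upstream of the start in an intron of ENSG00000285708, kept its call whichever replicate was left out. FOXP1-E lost it without S9CC13_R10, S9CC13_R13, S9CC13_R14 or S9CC47_R5 (adjusted p from 0.082 to 0.12), FOXP1-G without S9CC13_R13, S9CC47_R5 or S9CC47_R8 (0.054 to 0.092), and FOXP1-H without S9CC47_R8 (0.089). FOXP1-D, at the canonical start of FOXP1, was at 6.16, 9.27 and 14.2 CPM before and 6.70, 10.5 and 12.3 after (0.05 ± 0.12, adjusted p = 0.81).

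FOXD1-A lies 60.5 kb downstream of the FOXD1 start, in an intron of the noncoding gene ENSG00000249149 (chr5:73387786-73388286). It held 0.764, 3.64 and 12.5 CPM at 0 nM (lowest, median, highest) and 0.108, 0.360 and 2.17 at 500 nM. The groups overlapped through S9CC47_R5, which went from 1.81 to 2.17 CPM while the other 6 replicates fell. The fall was 7.37-fold (log2 change -2.88 ± 0.38 SE, edgeR adjusted p = 2.3e-06), and without S9CC47_R5 the log2 change was -3.67. That library also had the smallest decrease in 9 of the 32 lower REs, the most of the 7 replicates, with 26.1 M counts at 500 nM, and its part in these values was not tested. No other RE of the FOXD1 locus was called, and FOXD1-B at the start was at a median of 13.6 CPM before and 14 after (0.10 ± 0.08, adjusted p = 0.41).

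The untreated level of FOXD1-A varied with the differentiation in both genotypes. In the time course the vehicle samples of R4 held 14.1 CPM in SOX9-tagged and 14.2 in WT cells, and those of R5 held 1.68 and 3.63. At 48 h the R8 samples without dTAGV-1 held 12.5 CPM in S9CC47 and 14.3 in WT cells. R4 and R8 were thus high and R5 low in tagged and WT cells alike.

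FOXC1-A, 82.4 kb upstream of FOXC1 in intergenic sequence (chr6:1526702-1527530), was the RE of that locus with the smallest p. It went from 15.5, 18.7 and 22.0 CPM to 7.84, 10.5 and 12.2, with no overlap (log2 change -0.82 ± 0.08 SE, edgeR adjusted p = 1.6e-08). FOXC1-B at the start of FOXC1 had a median of 15.4 CPM in both groups. FOXC2-A, 83.0 kb downstream of FOXC2 in an intron of ENSG00000261161 (chr16:86649846-86650346), went from 1.12, 2.10 and 3.85 to 0.673, 0.909 and 1.49 CPM. These ranges overlapped, but FOXC2-A fell in 7 of 7 replicates (-1.12 ± 0.17, adjusted p = 1.3e-05). FOXF1-A, 29.6 kb upstream of FOXF1 in an intron of FENDRR, a noncoding RNA gene beside FOXF1 (chr16:86480462-86480962), was weak and went from a median of 0.989 to 0.443 CPM (-0.96 ± 0.22, adjusted p = 0.0019), lower in 6 of 7 replicates.

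At FOXD2, the changes were small and lay around the gene. FOXD2-A, 3.60 kb upstream in an exon of FOXD2-AS1 (chr1:47433944-47434444), went from 16.4, 21.1 and 27.9 to 11.6, 17.4 and 21 CPM, and it was lower in 7 of 7 replicates (-0.34 ± 0.08, edgeR adjusted p = 0.0026). FOXD2-C, 31.8 kb upstream, rose from a median of 4.60 to 6.44 CPM (0.43 ± 0.10, adjusted p = 0.0026). The log2 changes of all REs of the locus lay between -0.57 and 0.43.

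The higher REs of FOXF2 and FOXL2 were modest. FOXF2-B, 91.7 kb downstream of FOXF2 (chr6:1481284-1481784), went from 6.88, 10.8 and 14.8 to 10.7, 13.7 and 17.7 CPM and was higher in 7 of 7 replicates (0.38 ± 0.10, edgeR adjusted p = 0.0061). FOXL2-B, 30.0 kb upstream of FOXL2 (chr3:138977118-138977618), was the largest increase of the 220 REs. It was weak, at 0.304, 0.614 and 1.04 CPM before and 0.509, 1.27 and 1.55 after (0.91 ± 0.19, adjusted p = 0.00065). The ranges overlapped for both REs.

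The titration asked at which SOX9 level these changes appear. At 16 nM 20 of 220 REs were called (16 lower and 4 higher), against 16.2% of all REs (9.12% lower and 7.12% higher), and 49 with a replicate block. At 5 nM 8 were called (7 lower and 1 higher), against 5.32% of all REs (4.24% lower and 1.08% higher), and 16 with a replicate block. Leaving out S9CC13_R6 or S9CC47_R6 gave 44 and 33 at 16 nM, and at 5 nM leaving out S9CC47_R6 gave 21 and leaving out S9CC47_R8 gave 4. At 5 nM S9CC47_R6 differed more from the other S9CC47 replicates than at any other dose. Its part in the 5 nM calls, shares and midpoints was not tested. The comparisons at different doses share the 0 nM samples. The 7 REs lower at 5 nM comprised FOXP1-A, FOXP1-B, FOXP1-C, FOXP1-I, FOXC1-A, FOXD1-A and an RE 14.3 kb downstream of FOXD2, chr1:47452345-47452845 (log2 change -0.57 at 5 nM and -0.57 at 500 nM). FOXP1-A stood at -0.71, -1.91 and -2.57 at 5, 16 and 500 nM, and FOXD1-A at -1.10, -2.12 and -2.88. At 1.6 nM and 0.5 nM edgeR called 0 REs (0.0383% and 0% of all REs), and DESeq2 also called 0. At an unadjusted p under 0.05 there were 9 and 5. With a replicate block 1 RE was lower at 1.6 nM, and without S9CC13_R6 2 REs were lower at 0.5 nM.

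How much of the 500 nM change was reached at each dose was expressed as a percentage, from CPM within replicates (mean ± SD, n = 7). FOXP1-A reached 19.6 ± 21.5% at 51.7% of SOX9, 47.5 ± 20.8% at 25.8% and 87.6 ± 37.4% at 8.14%. FOXP2-A reached 13.3 ± 13.9%, 42.7 ± 26.2% and 85.9 ± 27.5% at the same levels, and FOXC1-A 12.7 ± 17.5%, 52.3 ± 26.8% and 77.3 ± 23.3%. A straight line from 100% to no SOX9 would have reached 48.3%, 74.2% and 91.9%. At 51.7% of SOX9 these 3 REs therefore lay below that line by more than their SD. FOXP2-B reached 38.5 ± 28.5% and FOXP1-B 59.3 ± 46.7% there, within 1 SD of it. A Hill curve gave the SOX9 level at the midpoint of the change, with its range when leaving out each replicate. The midpoint was 24.2% for FOXP1-A (21.9 to 26.4), 21.6% for FOXP2-A (20.1 to 23.9), 22.2% for FOXC1-A (20.4 to 26.8) and 11.5% for FOXC2-A (9.71 to 15.3). It was higher for FOXP2-B at 36.7% (29.6 to 40.0), FOXF1-A at 37.7% (32.3 to 42.3) and FOXP1-I at 31.3% (28.8 to 33.7). These 3 ranges lay above those of the first 4, but the groups were picked by their midpoints and other REs bridged them. The range of FOXP1-C, at 30.9% (25.3 to 34.2), overlapped those of both FOXP1-A and FOXP1-I. That of FOXP2-D, at 24.6% and reaching up to 29.2%, did so too. The range of FOXD1-A (27.2 to 40.5) overlapped the 3 higher ones. FOXP1-B, at 54.0%, ranged from 30.0 to 58.0, and FOXL2-B was at 9.99% (7.40 to 14.7). These ranges describe the fits and are not a test.

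**Figure D3:**
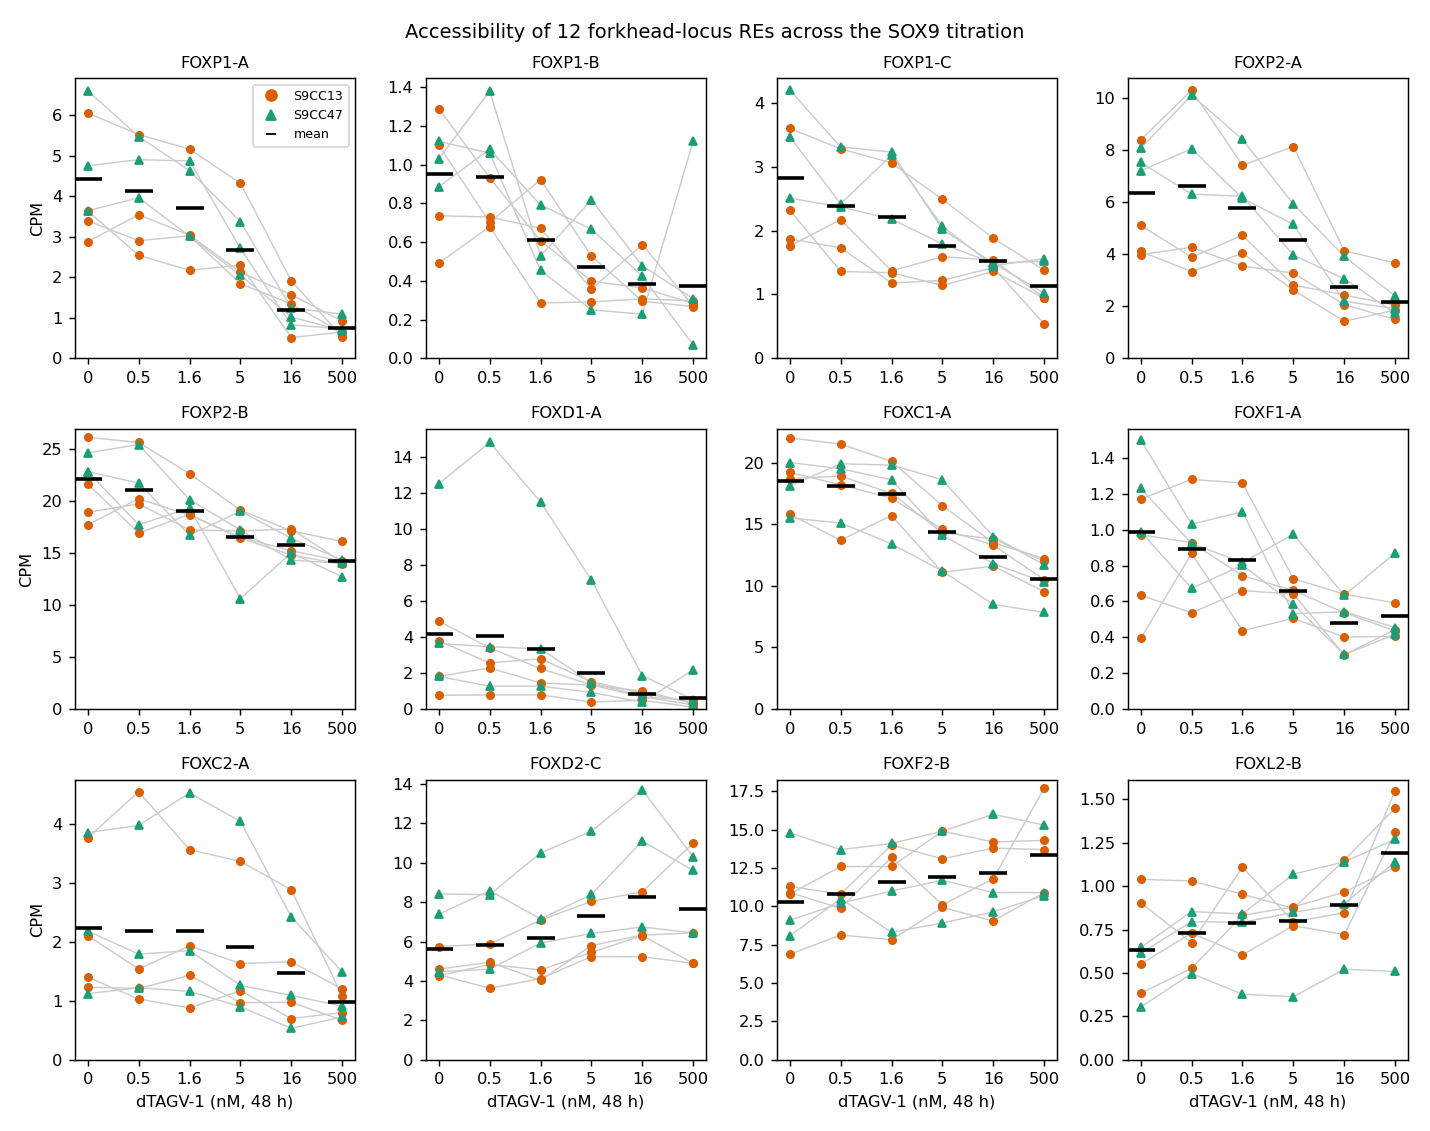
CPM of 12 REs in SOX9-tagged samples after 48 h at each concentration of dTAGV-1 (nM), with circles for S9CC13 and triangles for S9CC47, grey lines joining a replicate and black dashes for means (n = 7 per dose). FOXP1-A and FOXP2-A lie near their untreated values up to 1.6 nM, and single S9CC47_R5 samples at 500 nM stand out at FOXP1-B and FOXD1-A.

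The time course asked which REs respond early. After 3 h of 500 nM 16 REs were called in SOX9-tagged cells (7.27%), all lower, against 8.34% of all REs (7.43% lower). DESeq2 called 10, and 7 were called without R4. After 24 h 22 were called (19 lower and 3 higher), against 14.6% of all REs (9.93% lower and 4.70% higher), with 13 by DESeq2 and 8 without R4. Each of these fits carries the differentiation as a block, and without the block 0 REs were called at either time. FOXP1 and FOXP2 held 6 lower REs each at 3 h, FOXC1 2, and FOXD1 and the shared FOXC2 and FOXF1 interval 1 each. No RE of FOXD2, FOXF2 or FOXL2 was called at 3 h. The 3 higher REs at 24 h were all at FOXL2.

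FOXP1-A went from 4.13 and 5.98 CPM with vehicle (R4, R5) to 0.688 and 1.29 at 3 h and 0.341 and 0.903 at 24 h. The WT samples held 8.59 and 11.9 with vehicle, 8.40 and 11.2 at 3 h and 9.28 and 10.6 at 24 h. The tagged samples fell at both times while WT samples stayed near their vehicle values (log2 change at 3 h -2.44 ± 0.22 against -0.04 ± 0.15, edgeR adjusted p of the difference 6.3e-07). FOXP2-A went from 4.92 and 11.9 to 1.18 and 3.59 CPM at 3 h and 1.30 and 3.47 at 24 h, in contrast to 9.04 and 15.7, 8.58 and 14.8, and 11.7 and 14.3 in WT cells (difference at 3 h -1.86, adjusted p = 4.9e-06). FOXP2-D went from 1.09 and 1.16 to 0.266 and 0.218 CPM at 3 h and 0.155 and 0.313 at 24 h, a fall of 4.91-fold at 3 h, and WT cells held 1.06 to 1.42 throughout (difference at 3 h -2.22, adjusted p = 0.0024).

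FOXD1-A went from 14.1 and 1.68 CPM to 3.22 and 0.738 at 3 h and 1.24 and 0.516 at 24 h. It fell in both differentiations but stayed higher in R4 than in R5 at both times (difference from WT at 3 h -2.13, edgeR adjusted p = 4.6e-05). FOXC1-A went from 24.0 and 25.7 to 13.7 and 15.8 CPM and then 11.6 and 14.6 (difference -0.76, adjusted p = 0.0040). At the start of FOXP2, FOXP2-B went from 23 and 18 to 14.5 and 13 CPM at 3 h and 13.3 and 14.2 at 24 h (difference at 3 h -0.69, adjusted p = 0.012), and WT cells held 20.7 to 24.6. FOXC2-A behaved otherwise: in tagged cells it went from 3.81 and 0.896 to 5.33 and 1.93 CPM at 3 h and 1.86 and 0.922 at 24 h, not called at either time (0.65 ± 0.22, adjusted p = 0.082, and -0.69 ± 0.24, adjusted p = 0.060), although it was lower at 48 h. In WT cells its log2 changes had the same signs, at 0.18 (3 h), -0.31 (24 h) and -0.38 (48 h), none called. Its difference between genotypes was not called at 3 h (0.46, edgeR adjusted p = 0.65) or 24 h (-0.40, adjusted p = 0.63).

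**Figure D4:**
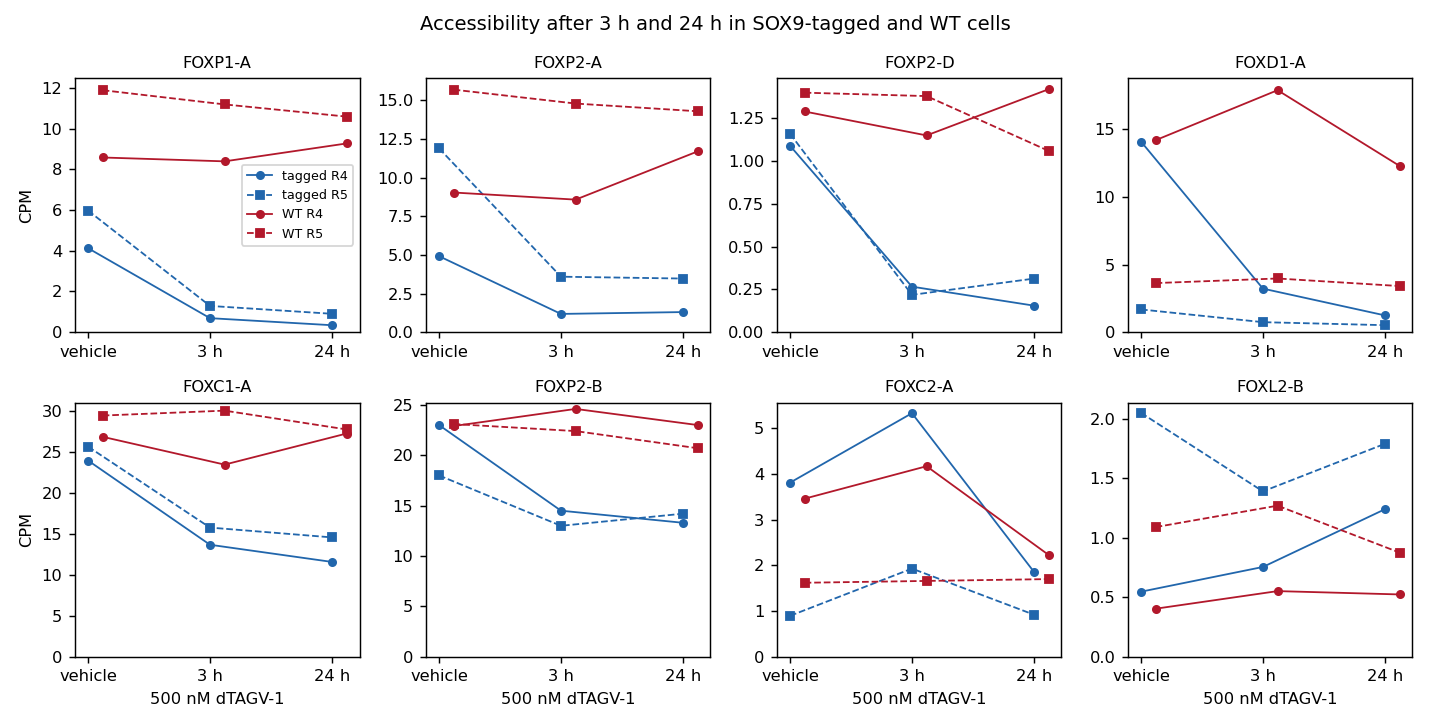
CPM of 8 REs with vehicle (24 h) and after 3 h and 24 h of 500 nM dTAGV-1 in SOX9-tagged (blue) and WT (red) cells, with circles and full lines for differentiation R4 and squares and broken lines for R5. FOXP1-A, FOXP2-A, FOXP2-D and FOXC1-A are low in tagged cells at 3 h, while FOXC2-A is not.

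Of the 32 REs lower at 48 h, 12 were also lower at 3 h (37.5%), against 43.3% of all REs lower at 48 h. The 12 comprised FOXP1-A, FOXP1-B, FOXP1-C, FOXP1-I, FOXP2-A, FOXP2-B, FOXP2-D, FOXC1-A, FOXF1-A, FOXD1-A and 1 further RE each of FOXP1 and FOXP2. A SOX core was found in 11 of these 12 (91.7%), FOXD1-A being the exception, and in 9 of the 20 (45.0%) lower at 48 h but not called at 3 h. The 4 REs lower at 3 h but not called at 48 h held a core in 2. REs differ in length, so the shares were also taken over REs of the common width of 501 bp. There a core occurred in 9 of 12 member REs lower at 3 h (75%), against 75.4% of all REs lower at 3 h, and in 69 of 148 member REs not called at 500 nM (46.6%), against 46.9% of all REs. The forkhead motif TGTTTAC (either strand, which can overlap a SOX core) occurred in 29 of the 220 REs (13.2%) and in 7.60% of all REs. Among REs of 501 bp it occurred in 20 of 184 member REs (10.9%) and in 6.86% of all. Such letters do not show binding.

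The degrader itself was examined in WT cells. At 48 h 1 of the 220 REs was called, FOXD1-A, which was higher at 500 nM (14.3 to 19.8 CPM in R8 and 3.81 to 4.83 in RSh, log2 change 0.41 ± 0.10, edgeR adjusted p = 0.035), against 0.303% of all REs. This direction is the opposite of that in tagged cells, and it was called neither by DESeq2 nor without either replicate. At 3 h and 24 h edgeR and DESeq2 called 0 REs in WT cells (0% of all REs), with 5 and 7 at an unadjusted p under 0.05. The change differed between the genotypes at 11 REs at 3 h and 11 at 24 h, against 5.20% and 6.73% of all REs. In 10 of the 11 at 3 h and all 11 at 24 h the change in tagged cells was more negative, and the remaining RE, chr16:86512240-86512740 near FOXF1, differed by 0.98 (adjusted p = 0.049). At 3 h there were 5 without tagged R4 and 6 without WT R5, and at 24 h 5 without tagged R4.

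Without dTAGV-1, SOX9-tagged and WT cells of the same differentiations were compared to see whether the tag alone goes with a difference. The pairs, a tagged and a WT sample each, were R4 and R5 with vehicle for 24 h and R8 at 0 nM for 48 h. Of the 220 REs, 4 were called, all lower in tagged cells, against 0.950% of all REs. FOXP1-A was lower by 0.90 on the log2 scale (-0.90 ± 0.12 SE, edgeR adjusted p = 0.00058), so its level was 53.4% of that in WT cells before any degrader. FOXD2-B was at -0.58 ± 0.11 (adjusted p = 0.011), and the RE 14.3 kb downstream of FOXD2 that was also lower at 5 nM was at -1.02 ± 0.17 (adjusted p = 0.0061). The fourth, chr6:1576050-1576550 near FOXC1, was at -0.73 ± 0.15 (adjusted p = 0.022). For FOXD2-B the direction depended on the samples used. With vehicle for 24 h its mean was 8.85 CPM in tagged and 14.6 in WT cells (n = 2 each). Over all 0 nM samples at 48 h, not matched by differentiation, it was 22.5 in tagged (n = 7) and 14.3 in WT cells (n = 2). For FOXP2-A the difference was -0.42 ± 0.13 and was not called (adjusted p = 0.13). Leaving out R4 gave 9 called REs, and the genotypes also differ in clone and editing history, which cannot be told apart from the tag. The labels give SOX9 in untreated WT cells at 115% at 48 h (the R8 pair), against 100% in tagged cells, and its part in these differences cannot be told apart from the genotype either. In the R4 and R5 pairs at 24 h they give 100% for both genotypes. They also give 0.95% for WT cells at 500 nM for 3 h and 24 h, although WT cells carry no tag.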

How the data were processed

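Chromatin accessibility was measured by ATAC-seq in 58 samples. In the deposited file, each sample has raw read counts for every RE, not normalized. According to the methods of the study and the submitters' processing notes, the authors trimmed reads with skewer, aligned them to hg38 with Bowtie2 2.4.1, processed them with SAMtools 1.10, called peaks with MACS2 2.2.7.1, kept summits found in several differentiations, extended these by 250 bp and merged them into 151457 REs. The counting tool is not given in the sources used here. As REs needed signal in several samples, sites open in few were not counted. Starts were read as counted from 0 and written from 1.

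Samples were grouped by titles. The concentration labels of the 0 and 0.5 nM samples of S9CC13_R14 are swapped against their titles, and the titles were used. Time-course columns of tagged R5 name clone S9CC47 while the titles name S9CC13. These columns were therefore matched on differentiation, treatment and duration alone. A replicate of the dose series is a clone within a differentiation, and the 7 replicates came from 6 differentiation batches, as both clones were used in R6. The p-values thus measure the spread between such cultures of the lines. No 2 samples of a group agreed within sampling noise (lowest chi-square per degree of freedom 2.6 over 134 pairs). At 5 nM S9CC47_R6 stood at 43 against S9CC47_R8 and 28 against S9CC47_R5, while these pairs stood at 11.2 and 7.94 at 0 nM.

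Counts of all REs were compared with edgeR 4.0.16 (R 4.3.3; TMM, quasi-likelihood test, no filter, Benjamini-Hochberg adjustment over all 151457 REs, threshold 0.05). Each dose was compared with 0 nM in 14 samples with differentiation batch as covariate, as the study did in DESeq2. Time courses carried the differentiation as block, and differences between genotypes were interaction terms over 12 samples. Untreated tagged cells were set against untreated WT cells within differentiations, in pairs of R4 and R5 at 24 h and R8 at 48 h. The test was tried on simulated data with the same spread for all REs and no differences between differentiations or clones. That trial does not cover the spread between cultures. Same-numbered samples deviated together in every comparison (lowest correlation 0.219 at 5 nM), so the replicates pair the samples. CPM used TMM library sizes, and log2 scales of CPM used a pseudocount of 0.5. Alternatives were DESeq2 1.42.0, RLE normalization, a low-count filter, a replicate block or none, and leaving out each replicate.

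The members and lists were chosen with earlier results of these data known. REs were named by a rule: the RE nearest each canonical start, for each gene the called lower and higher RE with the smallest p at 500 nM, the 5 largest decreases and increases among called REs, and all REs called at 1.6 or 0.5 nM or in WT cells. Other REs named singly were chosen after their values were seen. Motifs were searched on both strands of hg38 as ACAATG or ACAAAG and TGTTTAC. Shares reached and Hill midpoints took the means at 0 and 500 nM as ends. Intervals from counts would cover counting error only.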

Additional observations from a re-analysis of the deposited data

Results flagged for a closer look

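The effect of 500 nM dTAGV-1 differed between SOX9-tagged and WT cells by the interaction test of edgeR at 11 REs at 3 h and at 11 REs at 24 h. At 3 h the difference (log2 change in tagged cells minus that in WT cells) was -2.40 at FOXP1-A, -2.22 at FOXP2-D, -2.13 at FOXD1-A, -1.86 at FOXP2-A and -1.67 at FOXP1-B. It was -1.38 at FOXF1-A, -1.31 at FOXP1-I, -0.76 at FOXC1-A and -0.69 at FOXP2-B. At 24 h it was -3.14 at FOXP1-A, -2.87 at FOXD1-A, -2.26 at FOXP2-D, -2.21 at FOXP1-B, -2.05 at FOXP2-A and -1.54 at FOXP1-C. FOXF1-A stood at -1.46, FOXP1-I at -1.39, FOXC1-A at -0.98 and FOXP2-B at -0.57. The effects in WT cells at these named REs lay between -0.15 and 0.40.

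At FOXD2-B, the start-site RE of FOXD2, replicate S9CC13_R13 stood apart from the other 6 at 500 nM, with a log2 change of -0.76 against a median of -0.09 over 7 replicates. Its values were 38.3 CPM at 0 nM and 22.5 CPM at 500 nM. Chance flags about 1 in 20 groups, and 28 REs were looked at.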

How the results depend on the processing

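The 46 REs called at 500 nM became 15 with no replicate block and 33 to 55 when a replicate was left out. Between 41 and 67 were called with DESeq2, RLE normalization, the low-count filter or a replicate block. At 16 nM the count of 20 became 9 with no replicate block, 49 with a replicate block and 15 to 44 without a replicate, and at 5 nM the count of 8 became 0, 16 and 4 to 21. At 1.6 nM the replicate block gave 1 and every omission 0, and at 0.5 nM omissions gave 0 to 2. In tagged cells, DESeq2 called 10 at 3 h and 13 at 24 h, no replicate block gave 0 at both times, and without a replicate 7 to 13 and 8 to 16 were called. The 1 RE of WT cells at 48 h became 0 with DESeq2, with no replicate block and without either replicate. Genotype differences became 0 with no replicate block at 3 h and 24 h, and 5 to 12 and 5 to 14 without a replicate. The 4 REs differing between tagged and WT cells without dTAGV-1 became 0 with no replicate block and 5 to 9 without a replicate. Among the 28 named REs, 8 lost their call with no replicate block, 1 gained it with a replicate block, and none changed under DESeq2, RLE normalization or the filter. Their direction did not reverse in any of these fits where the RE was called. All 80 shares reached moved by less than 1 SD on the log2 scale. The cause of these changes was not tested. REs under 1 CPM, such as FOXP2-D and FOXL2-B, rest on few reads, and groups of 2 limit the time course.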

Other observations

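Other forkhead loci were counted by the same rule of position. The REs of 25 further forkhead genes numbered 422, of which 61 were lower and 26 higher at 500 nM (20.6% in all, against 24.1% of all REs). FOXP4, which belongs to the same subfamily as FOXP1 and FOXP2, had 25 lower REs and 1 higher RE among 47. FOXO3 had 8 lower and 1 higher of 25, FOXO4 5 lower and 1 higher of 17, and FOXJ1 5 lower of 20. FOXI3 had 1 lower and 3 higher of 15, and FOXN3 4 of each among 37. After 3 h 23 of the 422 were called (5.45%, 22 of them lower), against 8.34% of all REs (7.43% lower). In WT cells 0 were called at any time, against 0.303% of all REs at 48 h and 0% at 3 h and 24 h. These genes were not followed further, and neighbouring genes share some of these REs.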
